A study of Caenorhabditis elegans with 46 samples.

Results

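The DRM complex of *C. elegans* was followed at the genes that run the cell cycle and separate chromosomes. The set comprised 58 genes of the 1761 that the study assigned to DRM sites, and 60 of its 1418 DRM sites, each 500 bp long. Genes were chosen by the start of their symbol, with earlier results of these data known. The 32 prefixes used stand for cyclins, cell cycle kinases, kinetochore, checkpoint, cohesin, condensin, centrosome or spindle proteins. The presence of a wild-type (WT) site was part of the choice. The prefixes cover 105 protein-coding genes in the reference name table, so 47 of these were not among the assigned genes, and none of the cya, cyd, cks or tbg genes was. The prefix emb, which names an embryonic lethal phenotype, brought in *emb-4*, a spliceosome-associated helicase gene, and *emb-5*, the gene of the elongation factor SPT6, whose main roles lie in RNA processing and transcription. *cdk-7*, taken in by the prefix cdk, also serves general transcription.

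DRM is the worm form of the DREAM complex, which represses cell cycle genes in cells that have stopped dividing. It joins the E2F-DP heterodimer (EFL-1 and DPL-1), the pocket protein LIN-35, and the MuvB subcomplex, of which LIN-54, LIN-52, LIN-37, and LIN-9 were followed here. E2F-DP and LIN-54 contact DNA, and LIN-35 links E2F-DP to MuvB. Genes of mitosis and chromosome segregation are the classic targets of DREAM in animals.

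ChIP-seq, which sequences the DNA pulled down with an antibody to a chromatin protein, was performed on whole late embryos of *lin-35(n745)* mutants, which make no LIN-35 protein, and of WT worms (N2). Mothers were grown in liquid culture for 96 h in the *lin-35* null and 72 h in WT, and embryos of both were aged up to 3.5 h after collection. Each *lin-35* null list came from 3 libraries. WT lists came from 3 libraries, or from 2 for LIN-35, and the LIN-37 WT list combined 1 library of this series with earlier ones. All *lin-35* null libraries and the third WT extract were prepared with a newer kit, and the earlier WT extracts with gel-selected fragments, so genotype cannot be told apart from culture time or, for most WT libraries, from library protocol. Whole embryos mix cell types, and a weaker peak in every cell cannot be told apart from a peak in fewer cells.

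The 13 deposited lists each pool the replicates of 1 subunit in 1 genotype. They hold 783 to 1674 peaks in *lin-35* null embryos and 1771 to 2291 in WT embryos, and a peak width of 550 to 630 bp in *lin-35* null embryos and 290 to 584 bp in WT embryos. No list holds read counts or values of single replicates, so depth is unknown, no replicate error can be given, and no comparison here was tested. Peak height was read as the percentile of the authors' signal value among all peaks of its list, on a scale that ends at 100 for the tallest. It does not measure how much protein was bound, and a missing peak means only that none passed the threshold of that list. A site was counted as bound when a peak overlapped it by at least 1 bp. All 60 sites had peaks in all 7 WT lists, as the choice of genes nearly requires.

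In *lin-35* null embryos, sites of cell cycle genes kept peaks more often than DRM sites in general. LIN-9 peaks were called at 55 of the 60 sites (91.7%), against 70% of all DRM sites. LIN-52 and LIN-54 peaks were called at 52 each (86.7%), against 65.7% and 62.6% of all DRM sites. DPL-1 peaks were called at 48 (80%), against 56.6% of all DRM sites. LIN-37 peaks were called at 43 (71.7%), against 52% of all DRM sites, and EFL-1 peaks at 41 (68.3%), against 46.9%. EFL-1, which has the shortest list, was the subunit most often missing, and LIN-9, which has the longest *lin-35* null list, the least often. The excess over the background ran from 19.7 to 24.1 percentage points and was seen for each of the 6 subunits.

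**Figure D1:**
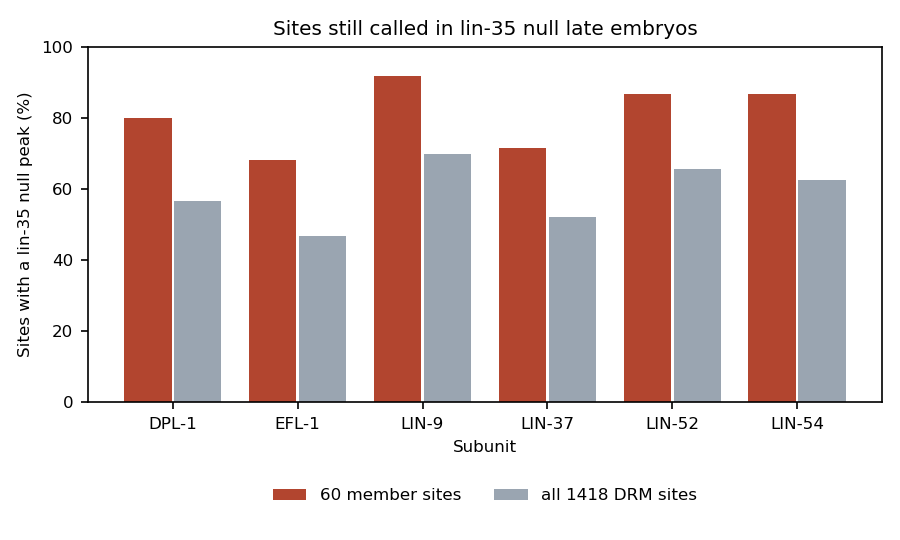
Share of sites (y axis, percent) with a *lin-35* null peak for each of 6 subunits (x axis). Red bars are the 60 sites of cell cycle genes and grey bars all 1418 DRM sites, and the red bar is the taller for each subunit, from 68.3% against 46.9% for EFL-1 to 91.7% against 70% for LIN-9.

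A site was called retained when *lin-35* null peaks of EFL-1, DPL-1, and at least 3 of the 4 MuvB subunits were all found there. This held at 40 of the 60 sites (66.7%), against 43.4% of all DRM sites, and at least 1 of the sites of 38 genes was retained. All 6 subunits were found at 38 sites (63.3%), against 40.6% of all DRM sites. At least 1 subunit was found at 56 sites (93.3%), against 73.3%, and none at 4 sites (6.67%), against 26.7%. The 4 genes without any *lin-35* null peak were *kbp-5*, *zyg-9*, *cdc-25.2*, and *klp-13*.

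Partial sets, with 1 to 5 of the 6 subunits, were found at 18 sites (30%), against 32.7% of all DRM sites. At least 3 MuvB subunits without either E2F-DP subunit were left at 4 sites (6.67%), those of *zyg-1*, *hcp-4*, *scc-3*, and *emb-4*, against 9.8% of all DRM sites. EFL-1 and DPL-1 alone were left at 1 site (1.67%), that of *bir-1*, against 0.987% of all DRM sites. The 4 sites of *san-1*, *spd-2*, *emb-27*, and *smc-3* had all subunits but EFL-1 (6.67%), against 5.29% of all DRM sites, and the 2 sites of *air-1* and *capg-2* had all but LIN-37 (3.33%), against 2.75%. The shares of partial sets lay near the background.

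**Figure D2:**
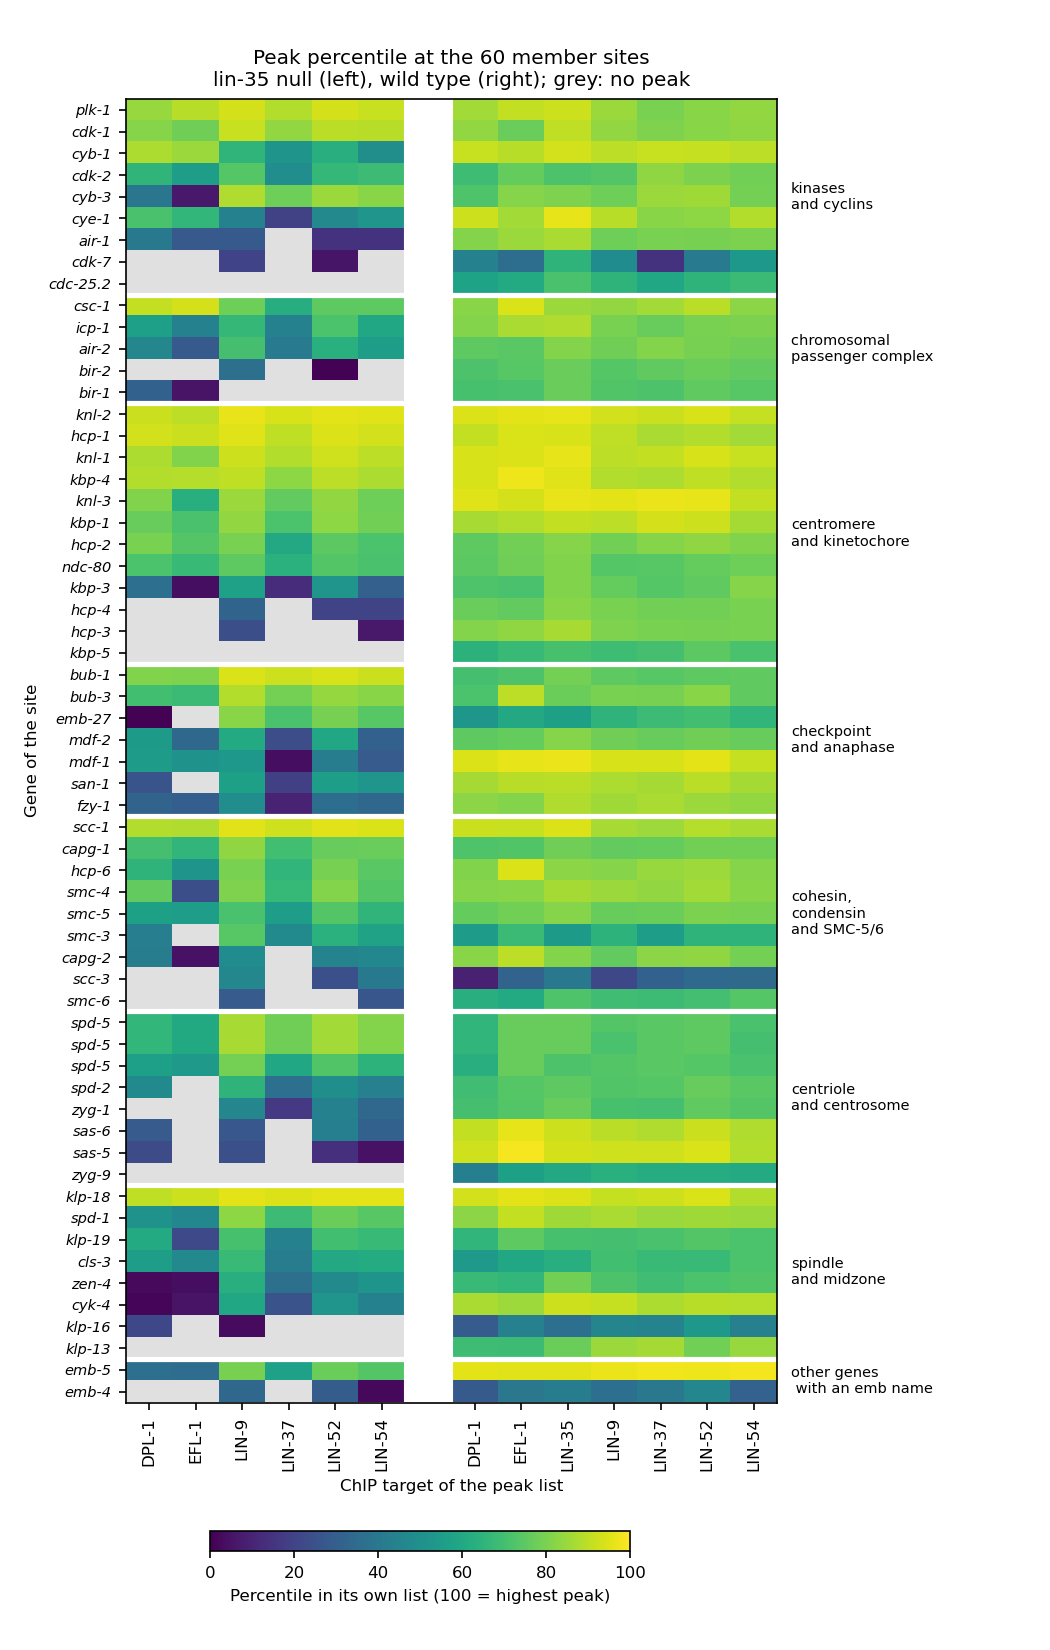
Peak percentile within its own list (colour, 0 to 100) at the 60 sites (rows, by gene and functional group), for the 6 *lin-35* null lists (left block) and the 7 WT lists (right block). Grey cells have no peak. The right block has no grey cell, and grey in the left block gathers in the last rows of most groups, with the 4 fully grey rows at *cdc-25.2*, *kbp-5*, *zyg-9*, and *klp-13*.

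WT peak height differed between the sites of cell cycle genes and DRM sites at large, and it moved with retention. The mean percentile over the 7 WT lists had a median of 79.2 at the 60 sites, against 65.8 over all DRM sites. Across the 60 sites it ranged from 28.9 at *scc-3* to 96.9 at *emb-5*. Retained sites had a median of 82.6 and sites not retained 71.3. When all DRM sites were divided into 4 rank groups of WT height, 51 of the 60 sites fell in the upper pair of groups.

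Retention was therefore read within groups of like WT height. In the highest group, 19 of 22 sites of cell cycle genes were retained (86.4%), against 84.2% of all DRM sites in that group. In the next group, 20 of 29 were retained (69%), against 53.1%. In the lower pair of groups, 1 of 5 (20%) and 0 of 4 were retained, against 23.4% and 13% of all DRM sites. The share at cell cycle genes stood above its background by the most in the second highest group. In the others it lay close to the background or rested on at most 5 sites. The 20 retained sites of the second highest group include the 3 overlapping *spd-5* sites, which share peaks. They also include *cyb-3*, which was not retained under a stricter overlap or with narrower peaks. The rank correlation between mean WT percentile and the number of *lin-35* null subunits was 0.485 over the 60 sites and 0.564 over all 1418, a description over sites that share the same libraries.

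**Figure D3:**
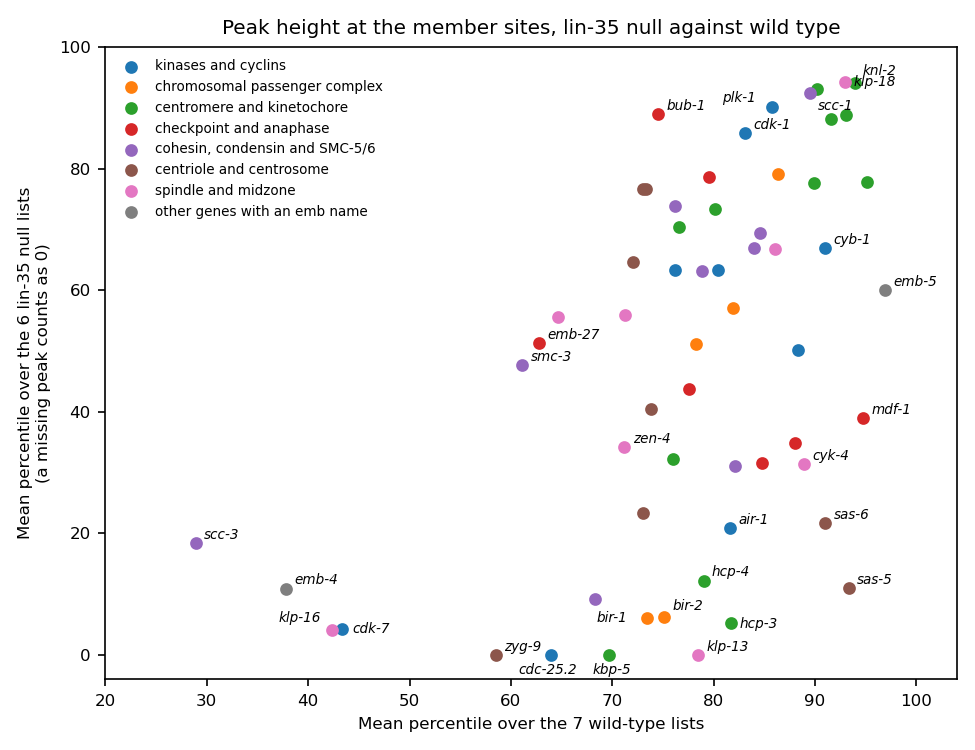
Mean percentile over the 6 *lin-35* null lists with a missing peak counted as 0 (y axis) against mean percentile over the 7 WT lists (x axis), 1 point per site, coloured by functional group. Sites high in both include *knl-2*, *klp-18*, and *scc-1*, while *sas-5*, *sas-6*, and *hcp-3* were high in WT and low in *lin-35* null embryos.

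Among sites with a peak, the median *lin-35* null percentile of cell cycle genes was closer to that of DRM sites than in WT. For DPL-1 the medians were 59 in *lin-35* null and 75.2 in WT lists, against 58.2 and 60 for all DRM sites. For LIN-54 they were 66.3 in *lin-35* null and 79.8 in WT lists, against 62 and 69.3. For LIN-35 in WT the median was 81.5, against 68.6 for all DRM sites. For EFL-1 they were 56.1 in *lin-35* null and 78.6 in WT lists, against 55.8 and 65.9. The LIN-52 medians were 72.4 in *lin-35* null and 79.7 in WT lists, against 64.3 and 68.8. For LIN-37, 62.4 in *lin-35* null and 79.9 in WT lists stood against 58.5 and 67.4. LIN-9 had 71.4 in *lin-35* null and 78.3 in WT lists, against 67.8 and 65.7. These *lin-35* null medians cover only the sites that kept a peak.

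The shares retained in the functional groups below are set against the 43.4% of all DRM sites. Each group holds at most 12 sites, and differences between groups were not tested. The kinases, cyclins, and phosphatase that drive the cycle had 7 of 9 sites retained (77.8%, against 43.4%). *cdk-1* encodes the mitotic cyclin-dependent kinase, and its site (ce10, chrIII:9747043-9747542) lies in a bidirectional promoter shared with *iff-1*. It stood at percentiles 82 for DPL-1, 78.3 for EFL-1, 89.1 for LIN-54, 89.8 for LIN-52, 83.9 for LIN-37, and 91.6 for LIN-9 in *lin-35* null embryos. In WT embryos it stood at 83.7, 77, 83.3, 82.4, 80.5, and 83.9 in the same order, and at 90.5 for LIN-35. The *cdk-1* percentiles of the genotypes overlapped. By quantitative PCR of the precipitated DNA (ChIP-qPCR), the study found significantly lower occupancy of most DRM subunits at this promoter without LIN-35. A rank kept within the lists is therefore not occupancy kept.

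*plk-1*, the Polo-like kinase gene, had the highest mean *lin-35* null percentile of this group. Its site (chrIII:8100870-8101369) stood at 84.7 for DPL-1, 89.4 for EFL-1, 91.5 for LIN-54, 93.7 for LIN-52, 88.3 for LIN-37, and 93.4 for LIN-9 in *lin-35* null embryos. The WT percentiles, in the same order, were 86.2, 91, 83.9, 82.4, 79.9, and 84.9, with LIN-35 at 92.5. In these whole-list percentiles the 4 MuvB subunits of *plk-1* stood higher in *lin-35* null embryos and the E2F-DP pair slightly lower. That direction of E2F-DP depended on list length: among DRM sites with a peak in both genotypes, DPL-1 stood 9.35 and EFL-1 12.8 points higher in *lin-35* null embryos.

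*air-1*, the Aurora A kinase gene, lay at the other end of the retained sites. Its site (chrV:8221064-8221563) stood at 40.3 for DPL-1, 27.8 for EFL-1, 14.7 for LIN-54, 14.6 for LIN-52, and 28.2 for LIN-9 in *lin-35* null embryos, with no LIN-37 peak. The WT percentiles were 81.3, 84.9, 80.1, 79.4, and 77.9 in that order, with LIN-37 at 79.8 and LIN-35 at 87.4. The *air-1* percentiles of the genotypes did not overlap, and the number of *lin-35* null subunits there dropped to 2 when all lists were shortened to the shortest, so its call as retained rested on low peaks.

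*cdc-25.2*, a CDC25 phosphatase gene, had no *lin-35* null peak at its intronic site (chrV:1575575-1576074), where WT percentiles were 57.9 for DPL-1, 61 for EFL-1, 68 for LIN-54, 64.9 for LIN-52, 59.8 for LIN-37, 65.2 for LIN-9, and 71.1 for LIN-35. *cdk-7*, which encodes the CDK-activating kinase, kept only LIN-9 (20.1) and LIN-52 (5.55). The other member of the group in an intron, *cdk-2*, which encodes the partner kinase of cyclin E, kept all 6 subunits at percentiles between 49 and 73.8. The cyclin genes *cyb-1*, *cyb-3*, and *cye-1* also kept all 6, with unequal ranks of E2F-DP and MuvB that are described further on.

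The chromosomal passenger complex, which carries Aurora B to chromosomes and to the spindle midzone, had 3 of 5 sites retained (60%, against 43.4%). *csc-1*, a borealin-like subunit gene (site chrII:13596458-13596957), stood at 90.8 for DPL-1, 93.6 for EFL-1, 75.1 for LIN-54, 75.1 for LIN-52, 62.4 for LIN-37, and 77.9 for LIN-9 in *lin-35* null embryos. Its WT percentiles were 82.3, 94.5, 82.6, 89.7, 86.2, and 83.8 in that order, and 84.8 for LIN-35. *icp-1*, the INCENP gene, and *air-2*, the Aurora B gene, kept all 6 subunits at mean percentiles of 57.1 and 51.1.

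*bir-1*, the survivin gene, was the exception in the kind of subunits left. Its site (chrV:11644088-11644587) had *lin-35* null peaks only for DPL-1 (31.2) and EFL-1 (5.24), both in the lower part of their lists. In WT embryos the *bir-1* site stood at 70.9 for DPL-1, 71.4 for EFL-1, 74.1 for LIN-54, 75.6 for LIN-52, 72.1 for LIN-37, 72.7 for LIN-9, and 77 for LIN-35. Its paralog *bir-2* kept LIN-9 (37.1) and LIN-52 (0.648) instead, with WT percentiles between 71.9 and 77.5.

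The centromere and kinetochore genes, whose products build the attachment site for microtubules, had 9 of 12 sites retained (75%, against 43.4%). They had the highest median of mean *lin-35* null percentiles among the 8 groups, 75.4. Their median of mean WT percentiles, 85.8, was also the highest of the 8. *knl-2* encodes a loading factor for the centromeric histone CENP-A. Its site (chrI:6460659-6461158) stood at 92.1 for DPL-1, 90 for EFL-1, 95.3 for LIN-54, 96 for LIN-52, 94.1 for LIN-37, and 96.8 for LIN-9 in *lin-35* null embryos. In WT lists the same subunits placed it at 94.8, 96, 91.4, 93.8, 92.1, and 93.3, and LIN-35 at 96.2. The site was therefore near the top of every list of either genotype.

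Other kinetochore sites near the top of the *lin-35* null lists were those of *hcp-1* (mean percentile 93.1), a CENP-F-like gene, of *knl-1* (88.8), the gene of the kinetochore scaffold, and of *kbp-4* (88.2), an NDC-80 complex gene. The MIS-12 complex genes *knl-3* and *kbp-1* had means of 77.8 and 77.6, the CENP-F-like gene *hcp-2* 73.3, and *ndc-80* itself 70.4. All of these sites kept 6 subunits. *kbp-3*, a further NDC-80 complex gene, also kept 6 but at a mean of 32.2, with EFL-1 at 3.7. It kept 4 with all lists shortened to the shortest or without the lowest 25% of each list. The study placed *kbp-3* and *air-1* among genes where neither E2F-DP nor MuvB was detectable without LIN-35. It also checked binding at some of the genes it tested by ChIP-qPCR. By overlap of at least 1 bp, the lists used here hold low peaks at both sites. The rule behind the study's call was not compared with this overlap, so the difference is not a contradiction of the study.

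The genes of CENP-A and CENP-C were not retained, in contrast to *knl-2*, which kept all 6 subunits. *hcp-3*, the CENP-A gene, kept LIN-9 (24.2) and LIN-54 (6.78), with a mean WT percentile of 81.7. *hcp-4*, the CENP-C gene, kept LIN-9 (32.1), LIN-52 (20.4), and LIN-54 (20.4), with a mean WT percentile of 79. *hcp-3* and *hcp-4* therefore stood as high in WT as retained *hcp-2*, at 80.1, and kept no E2F-DP peak.

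*kbp-5*, which encodes a KNL-1-binding protein, had no *lin-35* null peak. In WT embryos its site (chrI:10686965-10687464) stood at 64.3 for DPL-1, 67.6 for EFL-1, 71.4 for LIN-54, 74.7 for LIN-52, 70.4 for LIN-37, 69 for LIN-9, and 70.8 for LIN-35. Its mean WT percentile, 69.7, was the lowest of the 12 kinetochore sites.

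The spindle checkpoint and anaphase genes had 5 of 7 sites retained (71.4%, against 43.4%). They held both the largest upward move of rank and some of the largest downward ones. *bub-1* encodes a checkpoint kinase, and its site (chrI:7251487-7251986) lies in a bidirectional promoter with *lin-61*. It stood at 81 for DPL-1, 80.5 for EFL-1, 92.1 for LIN-54, 93.8 for LIN-52, 92.3 for LIN-37, and 94.4 for LIN-9 in *lin-35* null embryos. Listed alike, the WT values were 70.6, 71.9, 75.6, 75.2, 73.9, and 75, with 79 for LIN-35. The 6 *lin-35* null percentiles of *bub-1* all lay above its 7 WT percentiles.

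*fzy-1*, the CDC20 gene, gave the opposite picture. Its site (chrII:5501208-5501707) stood at 31.8 for DPL-1, 29.9 for EFL-1, 33.3 for LIN-54, 36.2 for LIN-52, 9.39 for LIN-37, and 49.2 for LIN-9 in *lin-35* null embryos. In WT embryos it stood at 82.6, 81.5, 83.8, 84.9, 87.3, and 85.6 in the same order, and at 87.9 for LIN-35. The *fzy-1* percentiles of the genotypes did not overlap.

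Of the remaining checkpoint genes, *bub-3* kept 6 subunits at a mean of 78.6. *mdf-2*, the MAD2 gene, kept 6 at a mean of 43.8, and *mdf-1*, the MAD1 gene, kept 6 at a mean of 38.9 although its mean WT percentile was 94.7. *san-1*, the MAD3 gene, and *emb-27*, which encodes the CDC16 subunit of the anaphase-promoting complex, each lacked EFL-1. At *emb-27* the remaining E2F-DP peak, of DPL-1, was at percentile 0.704, while its MuvB peaks stood between 71.1 and 82.4.

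Cohesin, condensin, and SMC-5/6 genes, which hold sister chromatids together, compact chromosomes, and repair them, had 6 of 9 sites retained (66.7%, against 43.4%). *scc-1*, the cohesin kleisin gene (site chrII:4698228-4698727, shared with *rpn-5*), stood at 88.5 for DPL-1, 88 for EFL-1, 94.4 for LIN-54, 95.5 for LIN-52, 92.7 for LIN-37, and 95.4 for LIN-9 in *lin-35* null embryos. The WT percentiles, in the same order, were 91.9, 91.5, 87.4, 88.7, 85.5, and 86.9, with LIN-35 at 94.8. As at *plk-1*, whole-list percentiles were higher for MuvB and lower for E2F-DP in *lin-35* null embryos, whereas among DRM sites with a peak in both genotypes DPL-1 at *scc-1* stood 2.74 and EFL-1 9.62 points higher in *lin-35* null embryos.

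The 4 condensin genes of the set were all retained, with mean *lin-35* null percentiles of 73.9 at *capg-1*, 69.4 at *hcp-6*, 67 at *smc-4*, and 31.1 at *capg-2*. Of the remaining cohesin genes, *smc-3* lacked EFL-1 alone, and *scc-3* kept LIN-9, LIN-52, and LIN-54. The *scc-3* site had the lowest mean WT percentile of the 60, 28.9, yet kept 3 subunits.

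The paired SMC-5/6 genes differed from each other. *smc-5* kept 6 subunits at a mean of 63.1. *smc-6* (site chrII:11578239-11578738) kept LIN-9 (28.6) and LIN-54 (26.8), against WT percentiles of 63.1 for DPL-1, 61.3 for EFL-1, 73.8 for LIN-54, 70 for LIN-52, 68.5 for LIN-37, 69.4 for LIN-9, and 72.4 for LIN-35.

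Centriole and centrosome genes, which build the spindle poles, were the group with the smallest retained share among those of more than 2 sites, 3 of 8 sites and 1 of 6 genes. This share of sites, 37.5%, lay near the 43.4% of all DRM sites. All 3 retained sites belong to *spd-5*, the gene of the pericentriolar scaffold. These overlap on chromosome I between positions 5175490 and 5176690 and share peaks, so they are not separate observations. At the middle site the highest peak was centred outside the 500 bp in 11 of 13 lists. That site (chrI:5175804-5176303) stood at 66.3 for DPL-1, 60.7 for EFL-1, 81.6 for LIN-54, 86 for LIN-52, 78.4 for LIN-37, and 87 for LIN-9 in *lin-35* null embryos. Its WT percentiles were 65.7, 76.6, 71.1, 75.3, 74.4, and 73.3 in that order, and 76.7 for LIN-35.

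The sites of *sas-5* and *sas-6* stood far lower in *lin-35* null than in WT lists. *sas-5*, a centriole assembly gene, kept DPL-1 (22.7), LIN-54 (4.82), LIN-52 (13.6), and LIN-9 (24.6), against WT percentiles between 88.6 and 98.5. *sas-6*, the gene of the centriole cartwheel, kept the same 4 subunits at 28.8, 31.2, 43, and 27.2 in that order, against WT percentiles between 88.1 and 96.4. No other site with a mean WT percentile above 90 failed to be retained. *zyg-1*, the gene of the PLK4-related kinase, kept the 4 MuvB subunits at percentiles between 16.5 and 46.3, against WT percentiles between 70.4 and 76.8. *spd-2*, the CEP192 gene, lacked EFL-1 and stood between 36.6 and 65.1 for the rest, against WT percentiles between 69.4 and 76.6.

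*zyg-9*, which encodes a microtubule polymerase of the XMAP215 family, had no *lin-35* null peak. In WT embryos its site (chrII:8456927-8457426) stood at 43.3 for DPL-1, 56.8 for EFL-1, 61.3 for LIN-54, 62 for LIN-52, 62.1 for LIN-37, 63.4 for LIN-9, and 60.5 for LIN-35, the lowest mean of the centrosome group.

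Spindle and midzone genes, which encode kinesins and bundling factors, had 6 of 8 sites retained (75%, against 43.4%). *klp-18*, a kinesin gene needed for the acentrosomal spindle of oocytes, had the highest mean *lin-35* null percentile of all 60 sites, 94.2. Its site (chrIV:7039404-7039903) stood at 90.6 for DPL-1, 92.5 for EFL-1, 95.8 for LIN-54, 95.8 for LIN-52, 94.7 for LIN-37, and 95.8 for LIN-9 in *lin-35* null embryos. In WT lists the same subunits placed it at 93.3, 96, 88.4, 94.4, 92.3, and 91.4, and LIN-35 at 94.8.

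The midzone genes *spd-1*, the PRC1 gene, *zen-4*, the centralspindlin kinesin gene, and *cyk-4*, the centralspindlin GAP gene, kept 6 subunits at means of 66.8, 34.2, and 31.4. At both centralspindlin genes the E2F-DP peaks lay at the foot of their lists, with DPL-1 at 2.61 and EFL-1 at 3.83 at *zen-4*, and DPL-1 at 1.61 and EFL-1 at 5.36 at *cyk-4*. The chromokinesin gene *klp-19* and the CLASP family gene *cls-3* kept 6 at means of 55.9 and 55.6. *klp-16*, a further kinesin gene, kept DPL-1 (21.5) and LIN-9 (2.99).

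*klp-13*, a kinesin gene with the only site on chromosome X (chrX:5984543-5985042), had no *lin-35* null peak. In WT embryos it stood at 69 for DPL-1, 68.5 for EFL-1, 84.5 for LIN-54, 78.6 for LIN-52, 86.6 for LIN-37, 84.9 for LIN-9, and 77.4 for LIN-35. It was the highest in WT of the 4 sites without a *lin-35* null peak. Across DRM sites, 4 of 53 on chromosome X were retained (7.55%), against 43.4% of all.

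Of the genes with an emb name outside these groups, 1 of 2 sites was retained (50%, against 43.4%). *emb-5* (site chrIII:4720764-4721263) stood at 36.7 for DPL-1, 35.6 for EFL-1, 73.4 for LIN-54, 77.7 for LIN-52, 57.1 for LIN-37, and 79.5 for LIN-9 in *lin-35* null embryos. Listed alike, the WT values were 95.9, 95.7, 98.3, 97.4, 98, and 97.2, with 95.7 for LIN-35. *emb-4* (site chrV:18894908-18895407) kept LIN-9 (33.8), LIN-52 (29.6), and LIN-54 (2.2), against WT percentiles of 28.3 for DPL-1, 39.5 for EFL-1, 31.4 for LIN-54, 46.4 for LIN-52, 40.1 for LIN-37, 36.7 for LIN-9, and 41.9 for LIN-35.

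To follow rank without the difference in list length, each peak was also ranked among the DRM sites with a peak in both genotypes for that subunit. Of 291 pairs of a site and a subunit, 95 stood at least 10 points higher in *lin-35* null than in WT embryos (32.6%), against 37.3% over all DRM sites, and 111 stood at least 10 points lower (38.1%), against 31.4%. Which direction was the more frequent depended on the lists. With all lists shortened to the shortest, 102 of 239 pairs stood higher (42.7%), against 38.7% over all DRM sites, and 73 lower (30.5%), against 33.6%. With percentiles in the whole lists, 15 of 291 stood higher (5.15%), against 12.9%, and 154 lower (52.9%), against 48.7%. The excess of lower pairs over the background turned round with shortened lists and is not a firm result about cell cycle genes.

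At 15 sites, the 3 overlapping *spd-5* sites included, at least 4 subunits stood at least 10 points higher (25%), against 19.3% of all DRM sites, and at 16 sites at least 4 stood as far lower (26.7%), against 14.4%. Such a call needs peaks in both genotypes for at least 4 subunits, which 47 of the 60 sites had (78.3%), against 57.6% of all DRM sites, and the shares are over all sites. *bub-1* moved furthest upward, with a median of 45 points and a range of 32.3 to 50.8. *emb-27* followed with a median of 33.1 points, a range of −22.3 to 33.7, and DPL-1 as the subunit that stood lower. *cdk-1*, whose whole-list percentiles overlapped between genotypes, had a median of 25.7 points with all 6 subunits higher, *plk-1* 23.7, *scc-1* 19.7, *bub-3* 19.6, and *capg-1* 18.5. The *spd-5* sites had medians of 14.7, 31.3, and 32.6.

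*sas-5* moved furthest downward, with a median of −70.7 points over its 4 subunits. *mdf-1* had a median of −58.3 over 6, *sas-6* −56.6 over 4, *hcp-3* −48.9 over 2, *cyk-4* −45.9 over 6, *air-1* −42.2 over 5, and *fzy-1* −41.3 over 6. Every subunit with a peak in both genotypes stood lower at these 7 sites. *smc-5*, *knl-1*, and *emb-4* moved by less than 10 points for each subunit they kept.

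**Figure D4:**
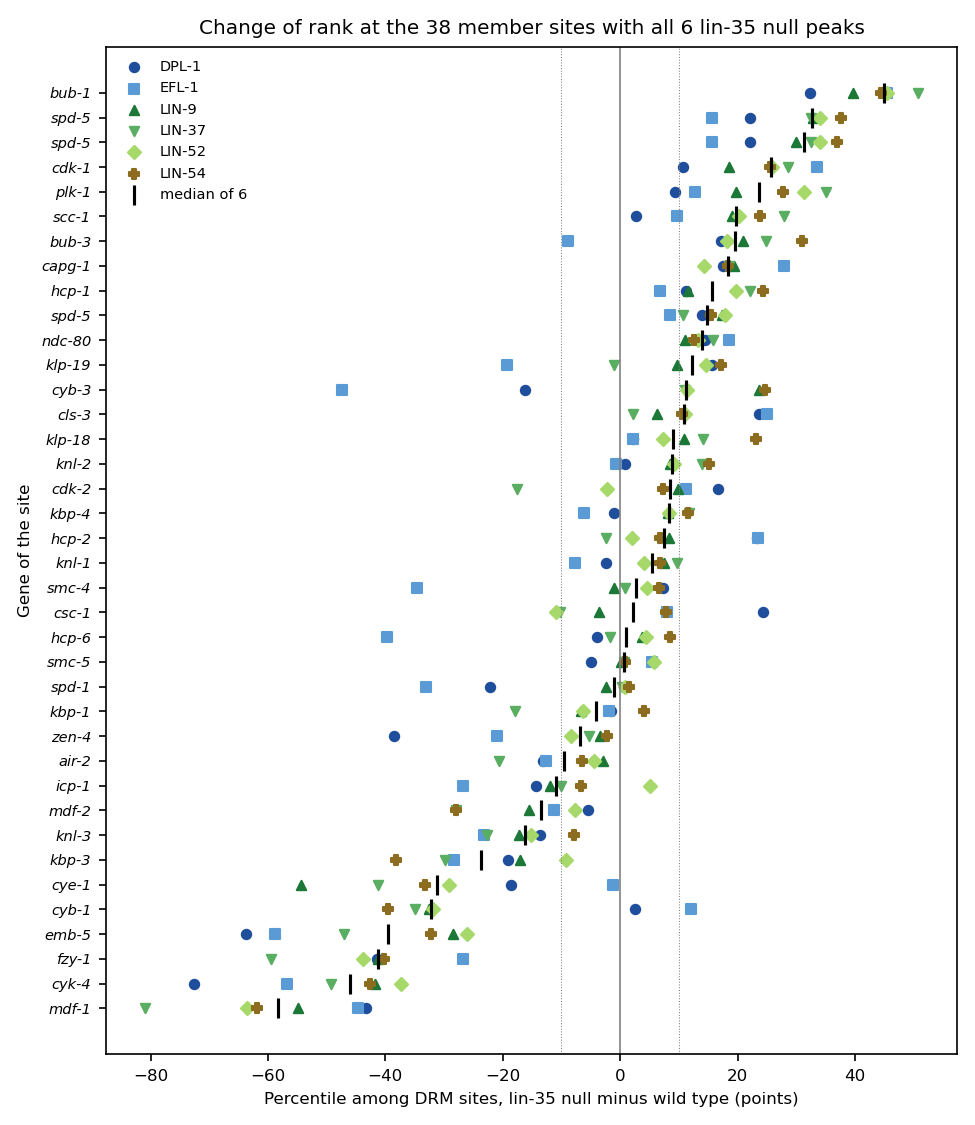
Percentile among DRM sites in *lin-35* null minus WT embryos (x axis, points) for each of 6 subunits (coloured symbols) at the 38 sites with all 6 *lin-35* null peaks (rows), with the median of the 6 as a black bar. Positive values are higher in *lin-35* null embryos, *bub-1* is at the top with a median of 45 and *mdf-1* at the foot with −58.3, and the symbols of *cyb-1* and *cyb-3* fall on both sides of 0.

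At most of these sites the subunits moved together, and at a few the E2F-DP pair parted from MuvB. This comparison was chosen after the values had been seen. Ranks were taken among the 576 DRM sites with all 6 *lin-35* null peaks and averaged over the E2F-DP pair and over the 4 MuvB subunits. In *lin-35* null embryos, E2F-DP ranked at least 20 points below MuvB at 3 of the 38 sites (7.89%), against 7.12% of all, and at least 20 points above it at 5 sites (13.2%), against 9.2%. In WT embryos, E2F-DP ranked as far below MuvB at 0 of the 38 sites, against 0.694% of all, and as far above it at 2 sites (5.26%), those of *kbp-4* and *plk-1*, against 2.6%. The shares at cell cycle genes lay near the background, so the divergence of E2F-DP and MuvB ranks in *lin-35* null lists was shared with other DRM sites.

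The B-type cyclin genes lay at opposite ends of this comparison, with a limit at *cyb-3*. At *cyb-1* (chrIV:10734462-10734961), E2F-DP had a mean rank of 78.9 and MuvB 22.1 in *lin-35* null embryos, a difference of 56.8 points, and 71.4 and 69.5 in WT embryos. At *cyb-3* (chrV:15395243-15395742), E2F-DP had a mean rank of 7.47 and MuvB 65.1 in *lin-35* null embryos, a difference of −57.6 points, and 41.2 and 45.4 in WT embryos. Neither pair of ranks stood apart by more than 5 points in WT embryos. However, the highest peak overlapping the *cyb-3* site was centred outside it in 12 of 13 lists, all but that of LIN-35, by up to 414 bp from the middle of the site. In *lin-35* null embryos the outlying peak was the only DPL-1 and EFL-1 peak, whereas each MuvB subunit had a second peak within the site, at percentiles 12.9 for LIN-37, 43.1 for LIN-52, 49.1 for LIN-54, and 70.8 for LIN-9. In WT embryos the peaks within the site stood at percentiles 51.9 for DPL-1, 56.3 for EFL-1, and 57 to 71.2 for MuvB. With overlap of at least 50% of the shorter interval, or with peaks of 200 bp, *cyb-3* kept the 4 MuvB subunits alone, was not retained, and dropped out of this comparison, as it also did without the lowest 25% of each list.

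The other sites with E2F-DP above MuvB in *lin-35* null embryos were those of *cye-1*, the cyclin E gene, with a difference of 46 points, *csc-1* with 42.8, *mdf-1* with 29.6, and *hcp-2* with 21.3. With the lists shortened or their lowest 25% left out, *cye-1* and *mdf-1* no longer had all 6 peaks. Those with E2F-DP below MuvB were *emb-5* with −28.6 and *spd-1* with −21.8. In WT embryos the differences at these 6 sites ranged from −5.1 to 14.1 points.

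**Figure D5:**
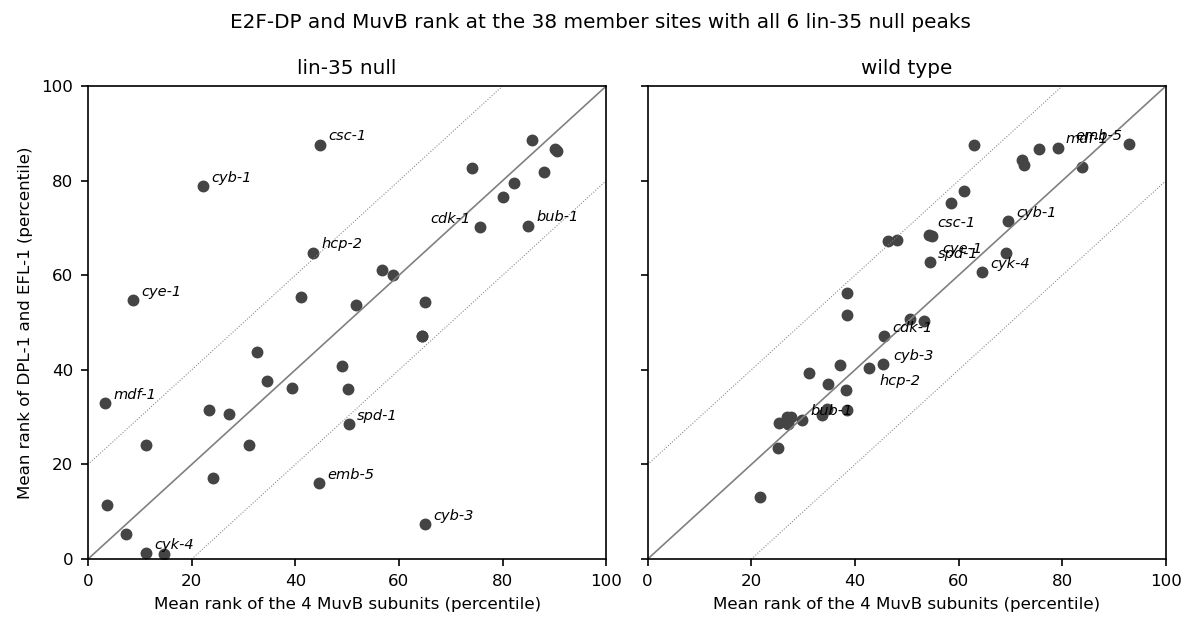
Mean rank of DPL-1 and EFL-1 (y axis, percentile) against mean rank of the 4 MuvB subunits (x axis, percentile) at the 38 sites with all 6 *lin-35* null peaks, in *lin-35* null (left) and WT embryos (right), with ranks among 576 DRM sites. The solid line marks equal ranks and dotted lines a difference of 20 points. Points scatter further from the line on the left, with *cyb-1* at 78.9 for E2F-DP against 22.1 for MuvB, and *cyb-3*, whose highest peaks are centred outside its site, at 7.47 against 65.1.

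The order of peak heights was only loosely shared between genotypes. Over sites with a peak in both, the rank correlation of *lin-35* null with WT signal lay between 0.205 for LIN-54 and 0.492 for EFL-1 at cell cycle genes (41 to 55 sites), and between 0.565 and 0.63 over all DRM sites (665 to 986 sites). These correlations describe sites of the same libraries. The sites of cell cycle genes also span a narrower range of WT height.

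Where a peak remained, the highest peak of a site mostly remained in place. The median distance between the middles of *lin-35* null and WT peaks was 4 bp for EFL-1, 7.5 bp for DPL-1, 9 bp for LIN-52, 10 bp for LIN-54, 11 bp for LIN-37, and 14 bp for LIN-9, against 8 to 13 bp over all DRM sites. Distances over 50 bp occurred at the overlapping *spd-5* sites, where neighbouring peaks can be paired, with up to 731 bp, and at *kbp-3*, *zen-4*, and *emb-5*, with up to 94, 67, and 53 bp. At *cyb-3* these distances pair the outlying peaks and miss those within the site. Measured from the middle of that site, the nearest MuvB peaks lay at −4 to −35 bp in WT embryos. In *lin-35* null embryos they lay at −186 to −194 bp. In WT embryos the middles of the peaks of the 7 subunits spanned a median of 16.5 bp per site, against 22 bp over all DRM sites. The *cyb-3* site was an exception away from *spd-5*, with a span of 404 bp. These 4 sites were the only ones of the 60 with a highest peak centred outside the site.

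By the study's annotation, 40 of the 60 sites lay in the promoters of divergent gene pairs (66.7%), 18 in the promoter of a single gene (30%), and 2 in an intron (3.33%). Over all DRM sites these shares were 29.8%, 48.5%, and 10.4%. A site between a pair of genes has more chances of being assigned to a gene of the list, so the share of divergent promoters cannot be told apart from the choice of genes. The study also assigned 40 of the sites to another gene, and peaks cannot show which gene of a pair is bound.

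Retention was 29 of 40 at divergent promoters (72.5%), against 50.6% of DRM sites of that location, and 10 of 18 at promoters of single genes (55.6%), against 48%. HOT regions, which many transcription factors occupy, held 16 of the 60 sites (26.7%), against 30% of all DRM sites. In HOT regions 12 of the 16 were retained (75%), against 60% of DRM sites in HOT regions. Outside them 28 of 44 were retained (63.6%), against 36.4% of DRM sites outside HOT regions.

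Cell cycle genes with other names were read from a further list of 49 genes. Of these, 30 had a DRM site, with 33 pairs of gene and site at 32 different sites. In *lin-35* null embryos 18 of the 33 were retained (54.5%), against 43.4% of all DRM sites, and 10 had no peak (30.3%), against 26.7%. Counted by pairs, this share without a peak lay above that of all DRM sites, unlike the 6.67% of the 60 sites. It rests partly on genes with several sites, but *cki-1*, *cki-2*, *apc-2*, *such-1*, *mau-2*, and *let-502* each had a single site and no peak. The share was not counted by gene, and the contrast was not tested. All 3 sites of *czw-1* lacked a peak, as did the intronic site of *rsa-2*, whose promoter site kept 6 subunits. Among cell cycle regulators, *wee-1.3*, which encodes an inhibitory kinase of CDK-1, was retained with a mean *lin-35* null percentile of 95.4 and a mean WT percentile of 97.3. *cki-1* and *cki-2*, which encode CDK inhibitors, had no *lin-35* null peak and mean WT percentiles of 45.3 and 62.3.

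Separase and its inhibitor, the genes *sep-1* and *ify-1*, kept 6 subunits at means of 77.2 and 51.2. The anaphase-promoting complex genes *apc-2* and *such-1* had no *lin-35* null peak, with mean WT percentiles of 49.5 and 41, and 7 others of the separase and anaphase group had no DRM site. Kinetochore genes *mis-12*, *him-10*, *zwl-1*, and *spdl-1* kept 6 at means of 71.5, 58.3, 77.5, and 75.3, while *czw-1* had none at any of its 3 sites and *rod-1* kept LIN-9 alone, so members of the complex of *zwl-1*, *rod-1*, and *czw-1* differed. Their mean WT percentiles differed too, with 85.4 at *zwl-1*, 55 at *rod-1*, and 30.4 to 59.1 at *czw-1*. The cytokinesis gene *ani-1*, which encodes anillin, kept 6 at a mean of 93.5, and *bmk-1* and *coh-3*, which share a site, kept 6 at 97.7.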

How the data were processed

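Libraries were mapped to subunit and genotype from the labels (46 samples). Reads had been aligned by the authors to the ce10 build (Bowtie 1.1.2, at most 2 alignments). SPP was run with input as control, and peaks passed an irreproducible discovery rate of 1% over all replicates. The submitters' processing notes also name deepTools 2.0. The deposited value used here is the SPP signal of each peak, which the authors made on a scale not given in the sources used here, so it was turned into a percentile within each list. The percentile of a site is that of its highest peak. The read depth behind each value is unknown.

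Coordinates of the DRM sites, their genes, locations, and HOT calls are the study's annotation, and all 58 gene identifiers matched the name table. Its classes and fold changes were not used. The groups of genes, the further list, and the members were chosen with earlier results of these data known. Every member is named, with all percentiles for the highest and lowest member of each group by mean *lin-35* null percentile, for members with no *lin-35* null peak, and for *cdk-1* and *air-1*. Counts of called sites over the whole set, and retained counts of the functional groups, are given beside all DRM sites, with no test. Most other counts within functional groups are given alone. The overlap steps were tested on simulated peaks placed close to the middle of the sites. Such peaks do not cover outlying ones, such as those at *cyb-3*. Python 3.11.15, numpy 2.4.6, pandas 2.3.3, and matplotlib 3.10.9 were used. Alternatives changed the overlap, the peak width, the lists' threshold and length, the site interval, the definition of retained, the peak taken, and the rank scale. Coverage tracks, input libraries, and the LIN-35 libraries of *lin-35* null embryos were not analysed here, so the loss of LIN-35 was not checked. Site sequences were not used here.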

Additional observations from a re-analysis of the deposited data

How the results depend on the processing

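Retention of cell cycle sites above that of all DRM sites held under each change of overlap, width, threshold, length, and site interval. It was 39 of 60 sites (65%), against 42.7%, with overlap of at least 50% of the shorter interval, and 39 (65%), against 42.9%, with peaks of 200 bp. It was 32 (53.3%), against 35.4%, without the lowest 25% of each list, and 33 (55%), against 38%, with all lists cut to the 783 peaks of the shortest. With the WT LIN-35 peak as the site it was 40 of 60 (66.7%), against 43.3%. As alternatives added after seeing the data, 38 of 58 were retained with 1 site per gene (65.5%), and 39 of 57 without *emb-4*, *emb-5*, and *cdk-7* (68.4%).

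With lists cut to the shortest, 10 sites had no *lin-35* null peak, 73 pairs of site and subunit ranked lower, 3 sites had E2F-DP above MuvB, and medians fell, by construction, to 57.3 for both LIN-9 and LIN-52 in *lin-35* null embryos. WT medians were then 57.3 for DPL-1, 52.2 for EFL-1, 48.7 for LIN-35, 42.3 for LIN-54, 47.9 for LIN-52, 50.3 for LIN-37, and 45.5 for LIN-9. Without the lowest 25% of each list, 8 sites had no *lin-35* null peak and 3 had E2F-DP above MuvB. The share of all DRM sites without a peak was not counted in lists shortened or trimmed this way. Whether the low share without a peak held against its background there was not tested. Moves of at least 20 points upward numbered 46, upward moves in whole-list percentiles 15, and with 50% overlap 2 sites of the second lowest group of WT height were retained. The cause was not tested for the last of these. The other 194 values for the set stayed within 10 points for medians or within 1.5 times for counts and distances, as did 278 of 300 counts of subunits at single genes. Within these limits, sites with all 6 subunits numbered 28 without the lowest 25% of each list and 31 with lists cut to the shortest, and *cyb-3* had 4 subunits with 50% overlap or 200 bp peaks, which left 2 sites with E2F-DP below MuvB. Also within them, downward moves of at least 20 points numbered 84. No share over all DRM sites was counted for moves of that size. Beyond these limits, *mdf-1* and *fzy-1* kept 2 subunits in shortened lists, and *hcp-3*, *klp-16*, *sas-5*, and *cdk-7* kept 0 without the lowest 25%.

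No paired analysis was possible because each list pools its replicates. Leaving out a replicate, such as the *lin-35* null extract with abnormally high signal, was not possible either. Promoter words were not searched, since no site sequence was used here. Unknown depth limits every missing peak: a site without a peak is one where none passed the threshold of its list.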
